A study of Mus musculus with 2 samples.

Results

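The 55 genes described here include the feedback brakes of the extracellular signal-regulated kinase (ERK) pathway. With them are mitogen-activated protein kinases (MAPKs) and the kinases directly above those. Some of the phosphatases prefer MAPKs other than ERK or lack the MAPK-docking domain, and are not ERK feedback brakes by name alone. All 55 were chosen by symbol from the 23282 rows of the deposited count tables. The rule took every numbered dual-specificity phosphatase (Dusp), Sprouty (Spry), Spred, Mapk and Map2k symbol, and the ERK-responsive genes Etv4, Etv5, Ier2 and Ier3. It used no measured value.

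Growth factor receptors switch on RAS and RAF, which activate the MAP kinase kinases Map2k1 and Map2k2, which in turn activate the ERK kinases. Active ERK turns on transcription of its own inhibitors: Dusp phosphatases remove the activating phosphates from MAPKs, and Sprouty and Spred proteins block the signal between receptor and RAF. In fat cells, insulin and fibroblast growth factors use this pathway, and ERK activity bears on the commitment and differentiation of preadipocytes. The JNK and p38 kinases are parallel stress-activated branches with their own MAP kinase kinases and phosphatases.

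The series compared 3T3-L1 cells, an established line of mouse preadipocytes, given a control siRNA or an siRNA against Pink1, which encodes a mitochondrial kinase. The labels call the cells adipocytes and give neither a differentiation day nor an interval after transfection. Each group was 1 library of 3′ tags, with 13803174 counts for control siRNA and 14214768 for Pink1 siRNA, so the differences below cannot be checked against replicates and carry no p-value. Summed over the list, the 10 adipocyte markers were at 2599 CPM (counts in every 1000000) in the control library and 2812 CPM in the Pink1 siRNA library, and the 8 preadipocyte and fibroblast markers at 30141 and 31537 CPM. All 18 were measured and 0 passed the rule of size explained below, against 2.39% lower and 1.63% higher of all measured rows. Of the 8 preadipocyte and fibroblast markers, 7 had ratios above 1, against 5957 of all 11660 measured rows, and Col1a2 was at 0.929. Thy1 had 1289 and 1892 counts (ratio 1.47), Col1a1 a ratio of 1.15 and Dlk1 1.12. These 3 had intervals above 1 also after the widening explained below, as did 244 of the 11660 rows. Ratios were above 1 for 6 adipocyte markers and below 1 for 4. Among the adipocyte markers, Plin1 was at 0.607 and Retn at 1.49, with widened intervals that included 1. The part of these marker differences in the results below was not tested. The 5 endothelial markers summed to 0.93 and 0.50 CPM, with Cdh5, Kdr and Tek at 0, and the 4 epithelial markers to 0.143 and 0.286 CPM, with Epcam and Cdh1 at 0. Macrophage and leukocyte markers summed to 18.9 and 14.4 CPM, mostly from Cd14 (223 and 179 counts). Csf1r had 25 and 11 counts, Lyz2 12 and 12 and Ptprc 5 and 0, with Adgre1 and Itgam at 0. Csf1r shares 873 exon bases with Hmgxb3 on the opposite strand (156 and 167 counts), so its count is uncertain. Muscle markers summed to 5.28 and 7.28 CPM, nearly all from Des, with Myod1 and Myog at 0. Pink1 itself had 511 and 351 counts, a ratio of 0.687 in the direction of the labels. It was not past the rule of size, its widened interval of 0.445 to 1.05 included 1, and 23 of the 583 rows of similar level, itself included, had a ratio as low. In bulk RNA, fewer cells of a type and less RNA per cell cannot be told apart.

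Of the 55 genes, 39 were measured, meaning that both libraries together held at least 40 counts. The median log2 ratio of Pink1 siRNA over control siRNA across these 39 was -0.07, against 0.00 over all 11660 measured rows. The ratio was below 1 for 21 genes and above 1 for 18, against 48.9% of all measured rows below 1, and 33 genes lay within 1.5-fold. By a rule of size, which asks for a ratio of at least 2 either way and a 95% counting interval that leaves out 1, the genes Mapk10, Etv5 and Dusp3 were lower and 0 were higher. Of all measured rows, 2.39% were lower by this rule and 1.63% higher. All 3 genes were in the lowest twentieth of mean level, where 18.2% of rows were lower by the rule. Each passed the filter mostly through its control count, so its inclusion and its low ratio are not independent. Of the 30 genes with at least 200 counts, 0 passed the rule, against 0.695% of all such rows.

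**Figure D1:**
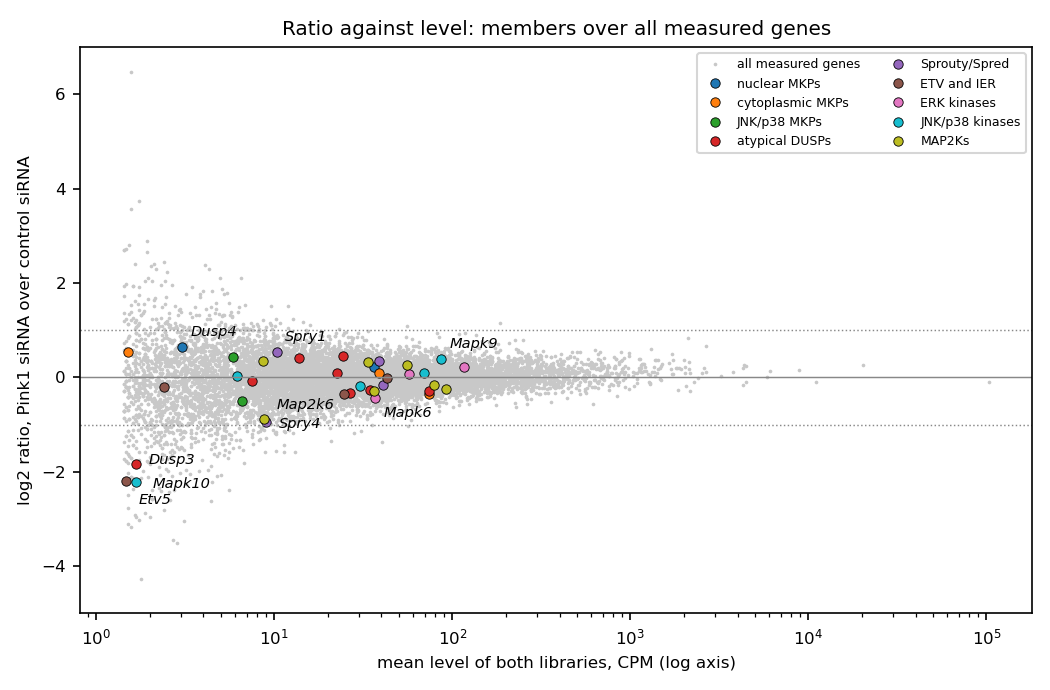
Log2 ratio of Pink1 siRNA over control siRNA (vertical axis) against mean CPM of both libraries (log axis) for all measured genes in grey and the measured members reported here in colour by role; dotted lines mark a ratio of 2 either way. Mapk10, Etv5 and Dusp3 lie below the lower line at the left edge, where the grey cloud is widest, and all other members lie between the lines.

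Genes of similar level differed between the libraries by more than counting error, so a wider interval was also computed from the spread of each gene's own twentieth of level. In the twentieths that hold the members, the squared difference of the counts averaged 5.58 to 20.6 times its counting variance over all rows of the twentieth. The counting interval left out 1 for 24 of the 39 members, 9 above and 15 below, against 26.2% and 24.9% of all measured rows. The widened interval left out 1 for 0 members, against 4.10% of all rows.

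**Figure D2:**
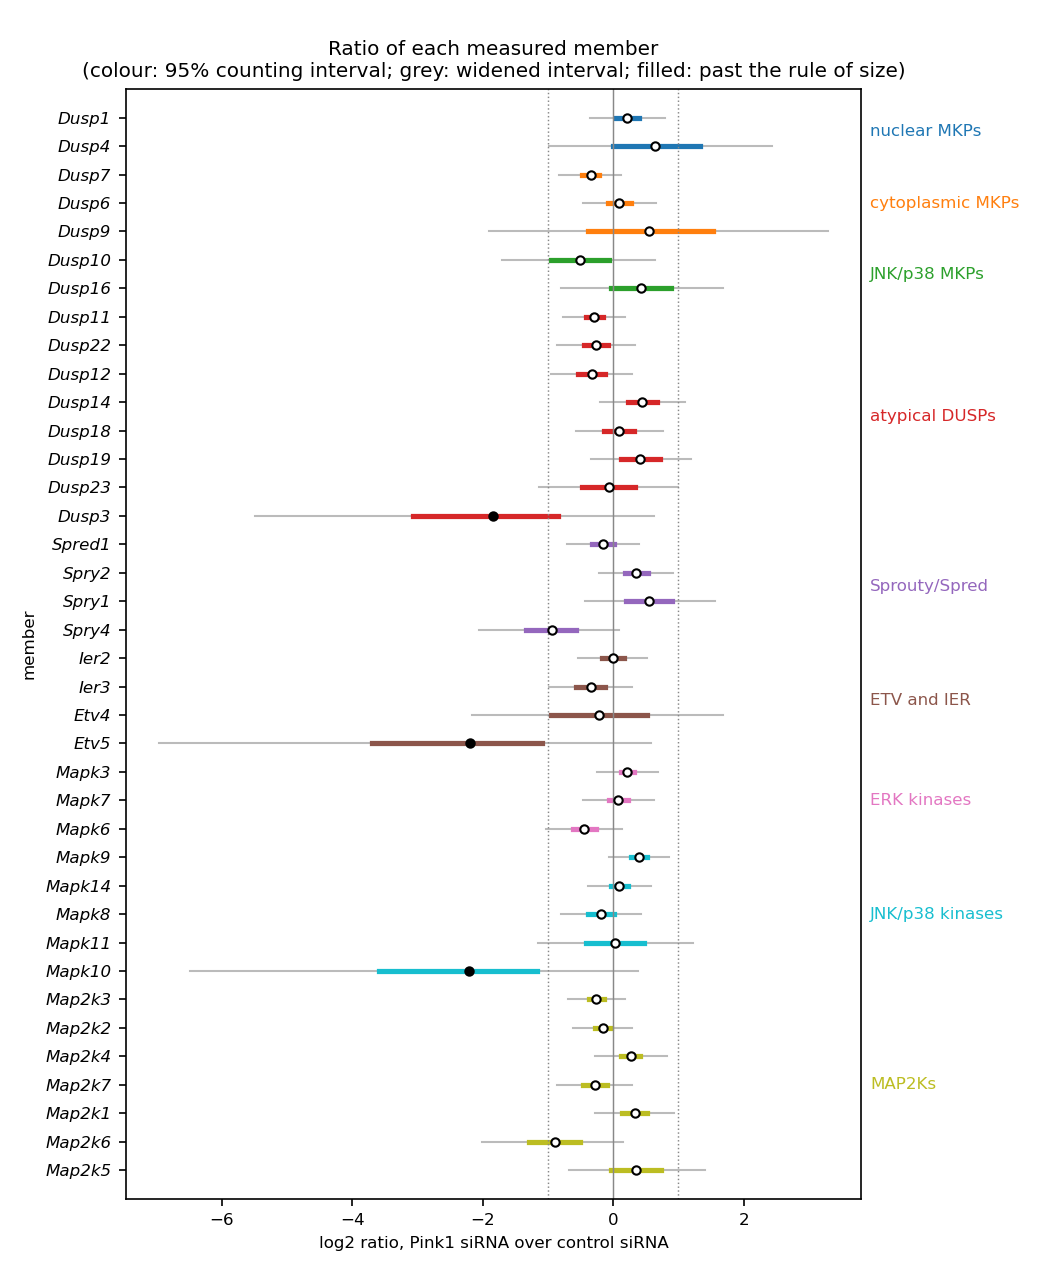
Log2 ratio of each measured member reported here with its 95% counting interval (colour) and widened interval (grey), grouped by role; filled points passed the rule of size. Every grey bar crosses the line at 0, and the 3 filled points have the longest bars.

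The 3 genes lower by the rule have different roles. Mapk10 encodes JNK3, a JNK kinase best known from neurons, and had 39 counts in the control library and 8 in the Pink1 siRNA library (2.78 and 0.571 CPM). This gave a ratio of 0.205 (counting interval 0.0828 to 0.445). Its widened interval was 0.0111 to 1.30, and 18 of the 583 rows of its twentieth of level, itself included, had a ratio as low. Etv5, an ETS transcription factor that ERK signalling induces, had 34 and 7 counts (2.43 and 0.50 CPM). The Etv5 ratio was 0.206 (counting interval 0.0770 to 0.472, widened 0.00807 to 1.49). Dusp3, the small phosphatase VHR that acts on ERK and JNK, had 37 and 10 counts (2.64 and 0.714 CPM). Its ratio was 0.270 (counting interval 0.120 to 0.554, widened 0.0223 to 1.55). All 3 were detected in both libraries, and their Pink1 siRNA levels were above the 0.214 CPM (3 counts) that a count of 0 would allow.

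The promoters of these 3 genes are shown beside those of Dusp1 and Dusp6, ERK-induced phosphatase genes with ratios of 1.16 and 1.07. Each run is 300 bases from RefSeq (GRCm38.p6), from 250 before to 50 after the most upstream start in the table, 5′ to 3′ on the gene's strand. Capitals mark the cAMP response element TGACGTCA and the GC box GGGCGG on either strand; in Dusp1 these letters lie side by side without overlap.
Mapk10 (chr5:103211285-103211584, strand -): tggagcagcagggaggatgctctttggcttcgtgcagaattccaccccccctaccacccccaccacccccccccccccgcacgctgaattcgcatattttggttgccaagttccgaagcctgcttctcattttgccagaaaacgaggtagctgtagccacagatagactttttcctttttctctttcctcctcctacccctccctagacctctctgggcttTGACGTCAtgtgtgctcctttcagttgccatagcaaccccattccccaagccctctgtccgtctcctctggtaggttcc
Etv5 (chr16:22439521-22439820, strand -): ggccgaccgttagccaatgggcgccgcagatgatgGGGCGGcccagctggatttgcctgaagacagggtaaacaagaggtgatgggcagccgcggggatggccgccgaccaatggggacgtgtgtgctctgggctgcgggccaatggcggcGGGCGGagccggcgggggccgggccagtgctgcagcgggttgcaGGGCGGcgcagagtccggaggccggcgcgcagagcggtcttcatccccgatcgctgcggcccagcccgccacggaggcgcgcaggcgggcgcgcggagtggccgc
Dusp3 (chr11:101984742-101985041, strand -): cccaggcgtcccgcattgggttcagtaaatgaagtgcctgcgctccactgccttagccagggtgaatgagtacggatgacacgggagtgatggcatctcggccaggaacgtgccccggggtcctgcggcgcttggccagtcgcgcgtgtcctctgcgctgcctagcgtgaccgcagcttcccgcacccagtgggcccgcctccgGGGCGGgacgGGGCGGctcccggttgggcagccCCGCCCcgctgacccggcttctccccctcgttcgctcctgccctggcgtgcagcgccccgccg
Dusp1 (chr17:26508423-26508722, strand -): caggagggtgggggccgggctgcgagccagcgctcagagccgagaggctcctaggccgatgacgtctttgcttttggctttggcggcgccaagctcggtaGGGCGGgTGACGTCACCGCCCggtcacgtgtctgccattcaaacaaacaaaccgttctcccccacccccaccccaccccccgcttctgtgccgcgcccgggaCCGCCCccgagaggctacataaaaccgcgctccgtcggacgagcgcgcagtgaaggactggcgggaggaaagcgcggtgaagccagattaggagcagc
Dusp6 (chr10:99262981-99263280, strand +): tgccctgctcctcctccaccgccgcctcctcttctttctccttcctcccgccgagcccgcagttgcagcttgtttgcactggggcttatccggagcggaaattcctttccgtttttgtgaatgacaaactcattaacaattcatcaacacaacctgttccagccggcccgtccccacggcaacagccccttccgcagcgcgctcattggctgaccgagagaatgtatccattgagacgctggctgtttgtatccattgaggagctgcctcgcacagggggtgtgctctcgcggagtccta
The cAMP response element was found in the Mapk10 and Dusp1 promoters, and the GC box 3 times each in those of Etv5, Dusp3 and Dusp1. Neither was found in that of Dusp6. Of the 55 genes, 41 had an entry, with 54 promoters in all. Among these, 3 promoters (5.56%) held the cAMP response element, those of Dusp1, Dusp8 and Mapk10, against 1.79% of all 32851 promoters. The GC box was in 35 of the 54 (64.8%), against 35.7% of all. The AP-1 letters TGANTCA were in 3 of the 54 (5.56%, against 7.81% of all), the ETS letters CCGGAAG in 1 (1.85%, against 8.86%) and TATAAA in 3 (5.56%, against 13.6%). Of the genes with the cAMP response element, Mapk10 had a low ratio and Dusp1 a ratio above 1. Dusp8 had 3 and 10 counts and was not measured. A link between the element and the ratio was not tested.

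The nuclear, inducible phosphatases were detected through Dusp1 and Dusp4. Dusp1 is an immediate early gene whose product turns off p38, JNK and ERK, and it had 471 and 548 counts (33.6 and 39.1 CPM). Its ratio was 1.16 (counting interval 1.03 to 1.32, widened 0.781 to 1.74). The GENCODE span of Dusp1 reaches Ergic1 on the opposite strand, by 640 bases of span and 11 of exon, and Ergic1 had 1526 and 1871 counts. The shorter RefSeq span (chromosome 17, 26505591 to 26508472) does not hold those bases, so whether the Dusp1 count shares reads depends on an annotation that is not known here. Dusp4, a nuclear ERK phosphatase, had 33 and 52 counts, the highest measured ratio of the set at 1.58 (counting interval 0.9996 to 2.52). Its widened interval was 0.505 to 5.38. Dusp2 had 2 and 7 counts, too few to measure, and Dusp5 had 0 in both libraries, which allows up to 0.214 CPM.

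The cytoplasmic phosphatases are selective for ERK, and Dusp6 is widely used as a readout of ERK output. Dusp6 had 527 and 562 counts (37.6 and 40.1 CPM), a ratio of 1.07 (counting interval 0.945 to 1.203). Dusp7 had 1154 and 907 counts (82.4 and 64.8 CPM), a ratio of 0.786 (counting interval 0.720 to 0.858, widened 0.564 to 1.09). Of the 583 rows of its twentieth of level, 27 had a ratio as low. Dusp9 had 17 and 25 counts, and its counting interval of 0.763 to 2.90 included 1. The counting interval was thus below 1 for 1 of the 3 genes, Dusp7, against 24.9% of all measured rows.

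The phosphatases that prefer JNK and p38 had few counts. Dusp10 had 108 and 76 counts, a ratio of 0.704 (counting interval 0.518 to 0.953, widened 0.308 to 1.56). It overlaps an opposite-strand noncoding transcript, 1700056E22Rik, with 22 and 49 counts, without shared exon bases. Dusp16 had 70 and 94 counts, a ratio of 1.34 (counting interval 0.975 to 1.86). Dusp8, with 3 and 10 counts, was not measured. Together the 3 genes summed to 181 and 180 counts.

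Among the 14 atypical phosphatases, which lack the MAPK-docking domain, 8 were measured, with a median log2 ratio of -0.17. Besides Dusp3, the lowest was Dusp12, which had 415 and 330 counts, a ratio of 0.795. Dusp11, an RNA phosphatase, had the most counts of this group, 1138 and 931, with a ratio of 0.818 (counting interval 0.749 to 0.893, widened 0.588 to 1.13). Dusp22 was at 0.833, Dusp23 at 0.953 and Dusp18 at 1.07. The highest were Dusp14, with 287 and 391 counts and a ratio of 1.36 (counting interval 1.17 to 1.59, widened 0.871 to 2.15), and Dusp19, with 166 and 221 counts and a ratio of 1.33. Dusp19 shares 131 exon bases with Nup35 on the same strand (155 and 141 counts), so its count is uncertain. The other 6 were Dusp13 (0 and 1 counts), Dusp15 (3 and 2), Dusp28 (0 and 4), and Dusp21, Dusp26 and Dusp27 at 0 in both libraries. Dusp13 overlaps Samd8 on the opposite strand (735 and 789 counts), without shared exon bases.

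The Sprouty genes had ratios on either side of 1. Spry4 had 166 counts in the control library and 86 in the Pink1 siRNA library (11.9 and 6.14 CPM). Its ratio of 0.518 (counting interval 0.395 to 0.676, widened 0.241 to 1.06) was just short of the rule, and 17 of 583 rows of similar level had one as low. Spry2 had 477 and 609 counts (34.1 and 43.5 CPM), a ratio of 1.28 (counting interval 1.13 to 1.44, widened 0.865 to 1.90). Spry1 had 118 and 172 counts (8.42 and 12.3 CPM), a ratio of 1.46 (counting interval 1.15 to 1.86, widened 0.739 to 2.95). Spred1, which recruits the RAS inhibitor neurofibromin to the membrane, had 601 and 540 counts, a ratio of 0.899 with a counting interval of 0.799 to 1.011. Spred2 (17 and 14 counts) and Spred3 (16 and 11) were not measured, and Spry3 had 0 in both libraries. The whole group summed to 99.6 and 102 CPM. Of its 4 measured genes, 0 passed the rule of size, against 2.39% lower and 1.63% higher of all measured rows. The widened interval left out 1 for 0 of them, against 4.10% of all measured rows.

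All 4 ERK-responsive early genes and factors had ratios below 1, from -2.20 to -0.01 on the log2 scale, against 48.9% of all measured rows. By the rule of size 1 was lower (2.39% of all rows), and 0 had a widened interval that left out 1. Ier2, an immediate early gene for a nuclear regulator, was nearly equal, with 603 and 600 counts (ratio 0.995, counting interval 0.887 to 1.12). Ier3, a stress- and growth factor-induced survival gene, had 387 and 305 counts (ratio 0.788, counting interval 0.676 to 0.918, widened 0.504 to 1.22). Etv4, the close relative of Etv5, had 36 and 31 counts (ratio 0.861, counting interval 0.515 to 1.43, widened 0.223 to 3.21). Etv4 and Dusp3 lie 185830 bases apart on chromosome 11. Etv4 and Etv5 had similar control counts, and their counting intervals were separate while their widened intervals overlapped.

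**Figure D3:**
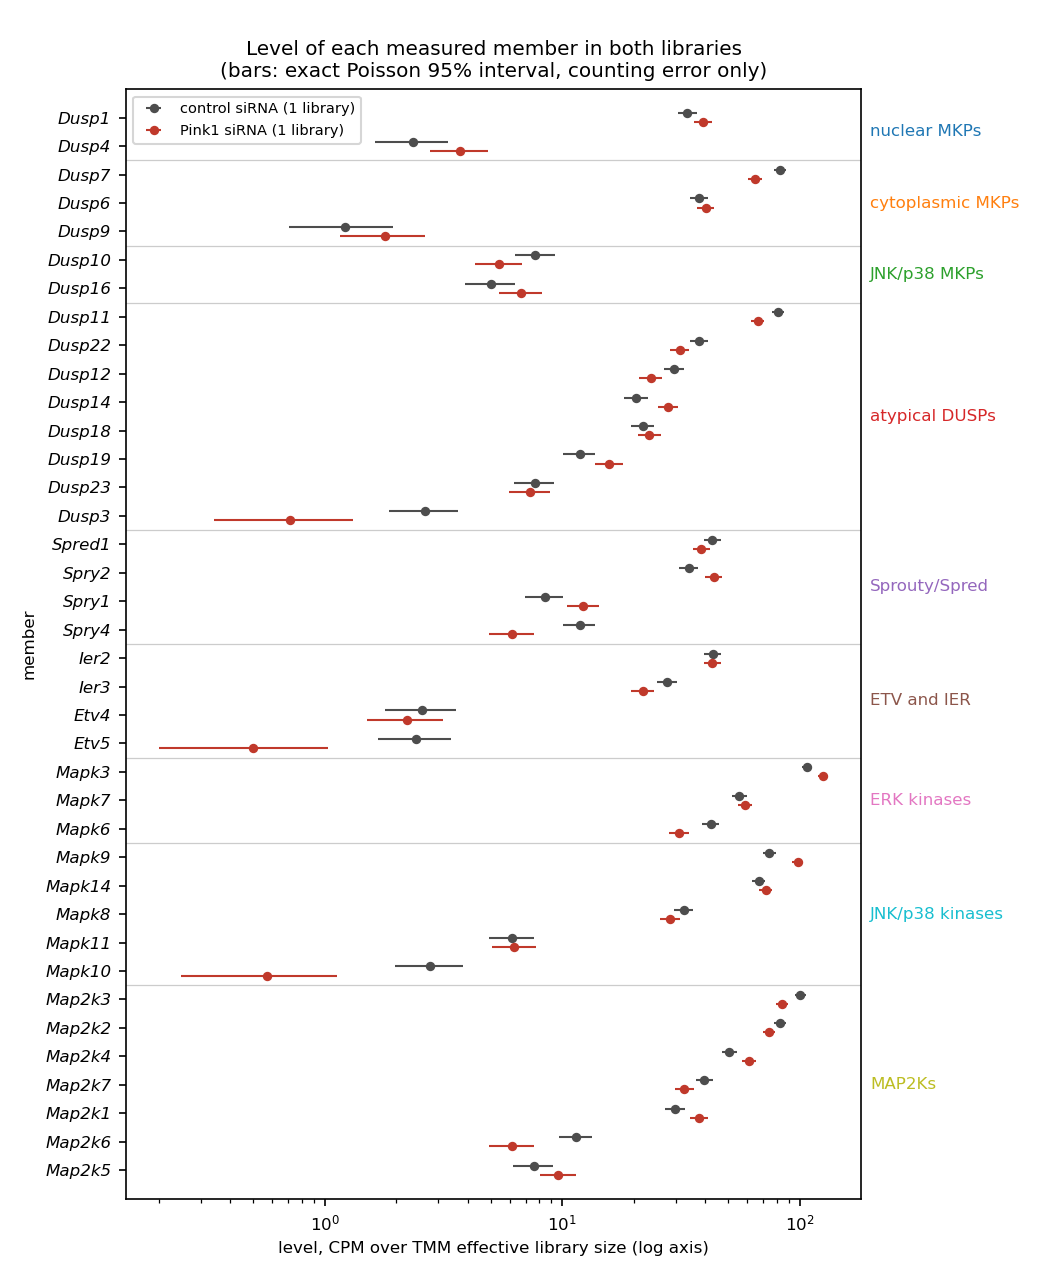
CPM (log axis) of each measured member reported here in the control siRNA (grey) and Pink1 siRNA (red) library, grouped by role, with exact Poisson 95% intervals that cover counting error only. The points of Dusp3, Etv5 and Mapk10 are far apart within each gene, those of Spry4 and Map2k6 less so, and most others nearly coincide.

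The ERK kinase genes reported here had ratios on either side of 1. Mapk3, which encodes ERK1, had 1505 and 1752 counts (107 and 125 CPM), a ratio of 1.16 (counting interval 1.09 to 1.25, widened 0.841 to 1.61). Mapk7, the ERK5 gene, was at 780 and 825 counts, a ratio of 1.06. Mapk6, the gene of the atypical kinase ERK3, had 592 and 436 counts (42.3 and 31.1 CPM), a ratio of 0.737 (counting interval 0.649 to 0.835, widened 0.491 to 1.10). Mapk4 and Mapk15 had 0 counts in both libraries.

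Of the JNK and p38 kinases other than Mapk10, Mapk9, the JNK2 gene, had the highest ratio. It had 1045 and 1375 counts (74.6 and 98.2 CPM), a ratio of 1.32 (counting interval 1.21 to 1.43, widened 0.960 to 1.81), and 27 of 583 rows of its level had one as high. Mapk8, the JNK1 gene, had 454 and 398 counts, a ratio of 0.877 (counting interval 0.764 to 1.005). The p38 alpha gene Mapk14 had 941 and 1006 counts, a ratio of 1.07, and the p38 beta gene Mapk11 had 86 and 88, a ratio of 1.02. With library totals in place of trimmed-mean scaling, Mapk11 took the other sign. Mapk12 lies 904 bases from Mapk11 and had 17 and 12 counts, and Mapk13 lies 20880 bases from Mapk14 and had 0 in both libraries.

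All 7 MAP kinase kinases were measured, with a median log2 ratio of -0.16. Of the ERK activators, Map2k1 had 420 and 527 counts, a ratio of 1.25 (counting interval 1.10 to 1.43, widened 0.829 to 1.91), and Map2k2 had 1162 and 1040, a ratio of 0.895 (counting interval 0.822 to 0.974). Map2k1 spans the Uchl4 gene on the opposite strand (214 and 155 counts), without shared exon bases. The lowest was Map2k6, a p38 activator, with 160 and 86 counts (11.4 and 6.14 CPM). Its ratio was 0.538 (counting interval 0.409 to 0.703, widened 0.249 to 1.11), and 20 of 583 rows of its level had one as low. The other p38 activator, Map2k3, had the most counts, 1408 and 1179, and a ratio of 0.837 (counting interval 0.774 to 0.905). The JNK activators Map2k4 (709 and 855 counts) and Map2k7 (556 and 457) were at 1.21 and 0.822. Map2k5, the activator of ERK5, had 106 and 135 counts and a ratio of 1.27, with a counting interval of 0.980 to 1.66.

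Several kinases with overlapping functions thus had ratios on either side of 1, and the share of each within its pair is free of the library scaling. These pairs were chosen after the values were seen, and the exact binomial (Clopper-Pearson) 95% intervals cover counting error only. Map2k1 made up 26.5% of the counts of Map2k1 and Map2k2 in the control library (24.4 to 28.8%) and 33.6% in the Pink1 siRNA library (31.3 to 36.0%), while the sum of the pair was nearly equal (1582 and 1567 counts). The share of Mapk9 in Mapk9 and Mapk8 was 69.7% (67.3 to 72.0%) and 77.6% (75.5 to 79.5%). That of Map2k4 in Map2k4 and Map2k7 was 56.0% (53.3 to 58.8%) and 65.2% (62.5 to 67.7%). Among the phosphatases, Dusp6 made up 31.4% (29.1 to 33.6%) and 38.3% (35.8 to 40.8%) of Dusp6 and Dusp7. The share of Map2k3 in Map2k3 and Map2k6, whose ratios were both below 1, was 89.8% (88.2 to 91.3%) and 93.2% (91.7 to 94.5%). For the p38 kinases the intervals overlapped, with Mapk14 at 91.6% (89.8 to 93.2%) and 92.0% (90.2 to 93.5%) of Mapk14 and Mapk11. Since the excess spread between the libraries was several times the counting variance, separate intervals here do not show that the cultures differ.

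**Figure D4:**
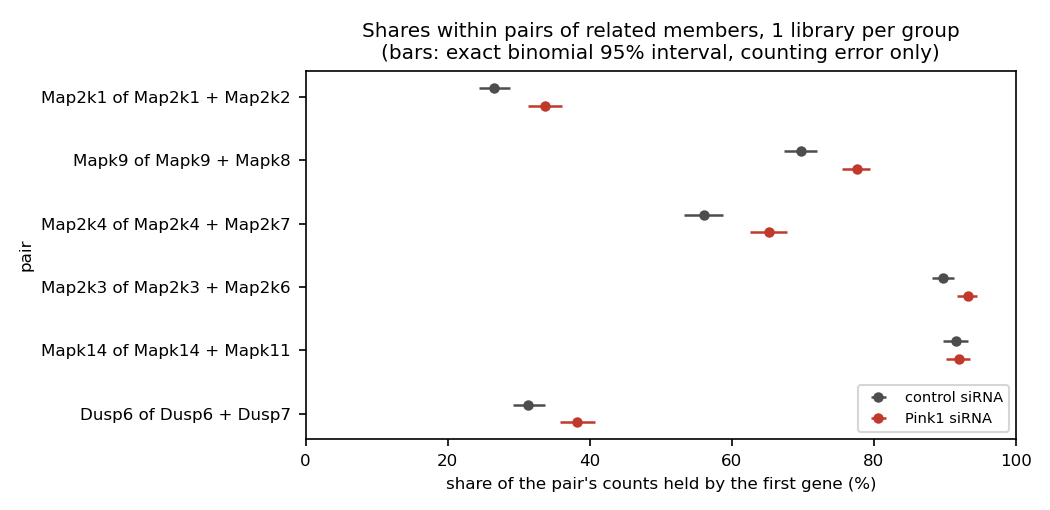
Share of a pair's counts held by the gene named at the left (horizontal axis, percent) in the control siRNA (grey) and Pink1 siRNA (red) library, with exact binomial 95% intervals for counting error. The intervals of the Mapk14 pair overlap, those of the Map2k3 pair lie close together, and those of the other 4 pairs are apart.

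The rest of the pathway was described from lists outside the rule. Upstream, 12 of 16 growth factor receptors were measured, with a median log2 ratio of 0.02 and 0 past the rule in either direction. Of all measured rows, 2.39% were lower by the rule and 1.63% higher. Egfr, the epidermal growth factor receptor, had 339 and 544 counts (ratio 1.60, counting interval 1.40 to 1.84), with a widened interval of 1.05 to 2.48. Axl was at 1.22, Fgfr3 at 0.775 and Met at 0.751, and their widened intervals included 1. Of 21 adaptor, RAS and RAF genes, 19 were measured, with a median of -0.03 and 0 past the rule, against the same shares. Their ratios ran from 0.772 for the RAS-related Rras and 0.805 for the adaptor Frs2 to 1.19 for Rras2 and 1.32 for the adaptor Gab2.

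Other brakes on the pathway had a median of 0.00 over 16 measured of 17 genes, and 3 of them had widened intervals below 1, against 2.01% of all measured rows. Cblb, a ubiquitin ligase that restrains receptor signalling, was the 1 gene lower by the rule (2.39% of all rows), with 102 and 32 counts (ratio 0.314, counting interval 0.204 to 0.471, widened 0.0816 to 0.959). The RAS GTPase-activating proteins Rasal2 (374 and 198 counts, ratio 0.529, widened 0.313 to 0.876) and Nf1, neurofibromin (405 and 256 counts, ratio 0.632, widened 0.395 to 0.999) did not pass it. Rasal2 shares 244 exon bases with 2810025M15Rik (169 and 140 counts), and Nf1 spans Evi2b (47 and 37) and Omg (47 and 35) without shared exon bases, all on the opposite strand. The adaptor Sh2b3 was at 1.44 and the fibroblast growth factor antagonist Il17rd at 1.42, with widened intervals that included 1, and Sh2b3 shares 99 exon bases with Atxn2 on the opposite strand (2517 and 2038 counts).

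The ERK target transcripts outside the phosphatase and Sprouty families mostly had ratios below 1. Of 27, 23 were measured, with a median log2 ratio of -0.27, 18 ratios below 1 (48.9% of all measured rows were), 1 gene lower by the rule (2.39% of all) and 0 higher (1.63% of all). Fos, the prototype immediate early gene, had 148 and 42 counts (10.6 and 3.00 CPM). Its ratio was 0.284 (counting interval 0.196 to 0.402, widened 0.101 to 0.690), the lowest of the 583 rows of its level. Egr1, another immediate early factor, had 3755 and 2561 counts (ratio 0.682, widened interval 0.506 to 0.916). The epidermal growth factor family ligand Ereg was at 0.523, Fosb at 1.25 and the mRNA-decay factor Zfp36 at 1.33, and their widened intervals included 1. A difference between this list and the 55 genes was not tested, since each group has 1 library.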

How the data were processed

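Gene levels were measured in 1 control siRNA and 1 Pink1 siRNA library of 3T3-L1 cells, made per the labels' protocols from Trizol RNA with a QuantSeq 3′ tag kit. The values deposited by the authors are raw read counts per gene symbol. The genome build was mm10, and the tools bcl2fastq 2.20.0.422, bedtools and Bowtie2, per the submitters' processing notes. Annotation, strand use and multiply mapped reads are not described in these sources, so overlaps of the named genes with another counted gene (GENCODE M21) are given beside their values. Reads copied from 1 molecule cannot be separated.

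Library sizes were adjusted with edgeR 4.0.16 (TMM, the trimmed mean of M values; R 4.3.3), and CPM are over these effective sizes. A tag kit reads each transcript near its 3′ end, so CPM were not divided by length and levels were not ranked between genes. The log2 ratio is that of scaled counts with 0.5 added. The precursor ribosomal RNA row held 10.8% and 9.83% of counts. Counting intervals are exact conditional binomial (Clopper-Pearson) 95% intervals of the 2 counts, and level intervals exact Poisson (SciPy 1.17.1). The widened interval divides both counts by the excess spread of their twentieth of mean level, which holds technical spread and real differences alike. The scripts were tested on simulated counts with counting error alone and changes planted only in genes of at least 200 counts. Such a simulation cannot test the rule under the excess spread seen here, or its recovery of changes at lower counts. All 55 symbols matched the RefSeq gene table. Counts and medians cover all measured members, and 1 member is not reported here by itself.

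The members, lists, naming rule and alternatives were chosen with earlier results of these data known. Full values are given for members past the rule of size and for the members of each role with the largest, smallest and most counted values, and in each pathway list outside the rule for the 2 highest and 2 lowest ratios and any widened interval that left out 1. Alternatives were library totals, DESeq2 1.42.0 and upper-quartile scaling, another prior count, filter, ratio and interval, and leaving out overlapping genes.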

Additional observations from a re-analysis of the deposited data

How the results depend on the processing

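Leaving out a replicate was not possible with single libraries. No paired analysis was possible because each group held 1 library and the labels give no replicate numbers. The count of 3 members lower by the rule of size became 5 with a ratio of 1.5, adding Spry4 and Map2k6, 0 with a summed count of 200, since fewer genes were tested, and 0 with the widened interval. With a ratio of 4 it was 2, without Dusp3. The count of 0 higher members did not move under any alternative tried. Scaling by library totals moved the log2 ratios of the members by up to 0.0425 and turned the sign of Mapk11 alone. DESeq2 size factors, upper-quartile scaling and leaving out the ribosomal precursor row turned no sign. Adding 5 counts before the log moved a member's log2 ratio by up to 0.501 and left 3 lower. With no filter, and with genes that overlap others left out, 3 members were lower. Medians of small roles depended on which genes counted. That of the phosphatases of JNK and p38 went from -0.04 to 0.42 with no filter and with overlapping genes left out, that of Sprouty and Spred from 0.10 to -0.21 and that of the JNK and p38 kinases from 0.03 to -0.08 with no filter, and that of the cytoplasmic phosphatases from 0.09 to -0.13 with a summed count of 200. Medians within 0.04 of 0 also took the other sign with library totals for the ERK kinases, the JNK and p38 kinases, the receptors, the other brakes and the output kinases, for the ERK kinases and other brakes with upper-quartile scaling, and for the other brakes with no filter. With a summed count of 200, the phosphatases of JNK and p38 had no measured gene. Over all 11660 measured rows, 190 were higher and 279 lower, against 633 and 774 with a ratio of 1.5 and 23 and 44 with a ratio of 4. The counts were 597 and 853 of 15489 rows with no filter, and 26 and 40 of 9490 with a summed count of 200. With the widened interval they were 48 and 81. Depth limits the precision of genes under 40 counts, for which no call was made.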

Other observations

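The kinases that lie between the pathway's inputs and its MAP kinase kinases are the MAP kinase kinase kinases. Of 18 listed symbols, 17 had a row in the deposited counts and 16 were measured, with a median log2 ratio of -0.11. Of these 16, 13 had ratios below 1, against 48.9% of all measured rows. By the rule of size 2 were higher and 1 lower, against 1.63% and 2.39% of all rows. Map3k6, a stress-activated kinase of the ASK family, had 497 and 1057 counts, a ratio of 2.13 (counting interval 1.91 to 2.37, widened 1.42 to 3.23), the highest of the 583 rows of its level. Map3k8, the ERK-activating kinase TPL2, had 30 and 61 counts (ratio 2.03, widened interval 0.666 to 7.14), and Map3k13, a JNK-activating kinase, had 61 and 27 (ratio 0.443, widened 0.118 to 1.40). Map3k13 shares 227 exon bases with 1300002E11Rik on the same strand (117 and 116 counts), so its count is uncertain. Map3k1 had 218 and 124 counts (ratio 0.569, widened 0.293 to 1.07).

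Downstream of ERK and p38, 18 of 19 output kinases and factors were measured, with a median log2 ratio of 0.02. The rule was passed by 0 of them, against 2.39% lower and 1.63% higher of all measured rows. The ETS-domain repressors that ERK restrains had ratios on either side of 1. Elk3, which shares 316 exon bases with Cdk17 on the opposite strand (188 and 138 counts), had 393 and 278 counts (ratio 0.707) and Erf had 472 and 602 (ratio 1.28). The HMG-box repressor Cic had 745 and 964 counts (ratio 1.29, counting interval 1.17 to 1.43, widened 0.901 to 1.87). Rps6ka5 was at 0.783, and the widened intervals of Elk3, Erf, Cic and Rps6ka5 all included 1.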
